A study of Mus musculus with 30 samples.

Results

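The hippocampus of mice collected 24 h after an injection of lipopolysaccharide (LPS) was compared with that of mice collected 6 h after saline, across all genes. The comparison used 7 of the 30 RNA sequencing libraries of the series, 4 after LPS (mice A274, A275, A276 and A278) and 3 after saline (mice A222, A224 and A226), chosen by tissue, treatment and time as labelled. The mice were adult males of the inbred strain C57BL/6J and served as a model of Gulf War Illness. Before the injection every mouse, controls included, had drunk corticosterone (CORT), the main stress glucocorticoid of rodents, at 200 mg/L in 0.6% ethanol for 7 days. It then received the organophosphate cholinesterase inhibitor diisopropyl fluorophosphate (DFP) at 4 mg/kg on day 8, with further intermittent CORT over 5 weeks. LPS was given on the final day at 0.5 mg/kg. The groups are therefore CORT+DFP+LPS at 24 h and CORT+DFP+saline at 6 h, and effects of CORT and DFP themselves are not measured by it. Tissue after saline came from the 6 h time point, so that treatment and collection time differ together and cannot be told apart. A saline hippocampus library that the submitters left out for its quality was not analysed here.

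LPS is a component of the outer membrane of Gram-negative bacteria. It is sensed by the receptor TLR4, which starts NF-κB signalling and the production of cytokines and type I interferons. In the brain, peripheral LPS acts first on vascular and border cells, and microglia, the resident macrophages, then change their expression of receptors, complement and interferon-stimulated genes. Interferons act on antiviral genes through the interferon-stimulated response element (ISRE) in their promoters.

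Stretches of promoter are shown for 3 genes that rose and that carry such an element. Bases are from RefSeq on GRCm38.p6, 5′ to 3′ on the gene's strand, from 250 to 21 bases before the annotated start site, and capitals mark the ISRE core GAAANNGAAA on either strand. Ifit3, which encodes an antiviral RNA-binding protein, is shown from chr19:34583279-34583508 on the plus strand. Gbp3, a guanylate-binding GTPase, is shown from chr3:142559794-142560023 on the plus strand, at 1 of its 2 annotated start sites. Tgtp2, an immunity-related GTPase, is shown from chr11:49064233-49064462 on the minus strand.
Ifit3: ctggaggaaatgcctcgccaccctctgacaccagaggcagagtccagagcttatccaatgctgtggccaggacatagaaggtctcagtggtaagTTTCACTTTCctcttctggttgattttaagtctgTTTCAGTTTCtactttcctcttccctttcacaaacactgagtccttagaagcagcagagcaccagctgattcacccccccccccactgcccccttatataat
Gbp3: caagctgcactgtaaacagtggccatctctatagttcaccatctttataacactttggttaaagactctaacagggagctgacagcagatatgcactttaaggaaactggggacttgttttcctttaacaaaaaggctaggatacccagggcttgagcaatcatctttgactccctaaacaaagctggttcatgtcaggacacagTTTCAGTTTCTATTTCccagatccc
Tgtp2: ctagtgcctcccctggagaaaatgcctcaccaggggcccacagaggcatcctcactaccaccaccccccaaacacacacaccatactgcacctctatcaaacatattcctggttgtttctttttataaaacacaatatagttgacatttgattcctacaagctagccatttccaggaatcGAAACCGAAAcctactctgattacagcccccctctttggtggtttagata
The matches in Ifit3 begin 156 and 122 bases before the start site, those in Gbp3 overlap and begin 45 and 39 bases before it, and the match in Tgtp2 begins 70 bases before it. Over windows of 300 bases (250 before to 50 after the start site), the core was present for 1079 of 27025 genes (3.99%). It was present for 12 of the 18 antiviral effector genes found in the promoter table and for 8 of 8 interferon-inducible GTPase genes. Of the 14 MHC class I presentation genes found there, 5 had it, and of the 13 interferon signalling genes 2 (15.4%), Stat2 and Socs1. The core was found for 1 of 12 homeostatic microglia genes and 0 of 16 cell division genes. Another motif, TTCNNNGAA, was present for 2582 of the 27025 genes (9.55%). It was present for 6 of the 18 antiviral genes and 5 of the 8 GTPase genes, Tgtp2 included. For the interferon signalling and class I genes the numbers were 4 of 13 and 1 of 14. A match describes the letters in the window and does not show binding.

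Deposited counts summed to 26818493 to 29896427 in the saline libraries and 20458591 to 24079020 in the LPS libraries. Expression is given as CPM, the usual scaling of counts to a common library size, with TMM factors, in the order A222, A224 and A226 after saline and A274, A275, A276 and A278 after LPS, with mean ± SD (n = 3 and n = 4). CPM is not corrected for gene length, so levels are compared between libraries and not between genes. Fold changes are log2 values with the standard error (SE) from edgeR's quasi-likelihood test, and p values are Benjamini-Hochberg adjusted over 17289 genes with a threshold of 0.05. The hippocampal marker Dsp was at 50.1 ± 8.57 CPM in these saline libraries against 0.56 ± 0.0767 CPM in the frontal cortex after saline (n = 3), and the hippocampal marker Spink8 at 34 ± 2.5 against 2.31 ± 1.12 CPM. Libraries A222, A226 and A276 stood apart in some genes. Saline A222 held more choroid plexus transcripts, with Ttr at 0.115% of counts against at most 0.0129% in the others. Saline A226 held more of several microglial transcripts, and LPS A276 more of some endothelial and neutrophil transcripts, such as Ctla2a, Slc2a1 and S100a8. For the vascular genes Vwf and Atp10a, A276 was instead the lowest LPS library. Mitochondrial transcripts took 7.04% to 8.32% of counts. Samples were separate mice, and the tissue was bulk, so a change in the number of cells of a type and a change in RNA per cell cannot be told apart.

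Of the 17289 genes tested, 1168 were higher (6.76%) and 1141 lower (6.6%) after LPS, and 348 of these were at least 2-fold higher (2.01%) and 88 at least 2-fold lower (0.509%). Called genes made up 13.4% of those tested, and 25.5% had an unadjusted p under 0.05. Counts of called list members below are to be read beside the shares of 6.76% higher and 6.6% lower. Every LPS library was above every saline library for 1877 genes (10.9%) and below for 2027 (11.7%). The median change over all genes was 0. Scaling by library totals alone put that median at 0.044 and gave 1613 higher and 737 lower genes, so that 68.6% of called genes were higher against 50.6% with TMM. The number of lower genes was 661 without saline A222. The plot of all lists shows that interferon, Fc receptor, microglial and endothelial activation genes lay mostly to the right of zero and glucocorticoid-responsive genes to the left.

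**Figure D1:**
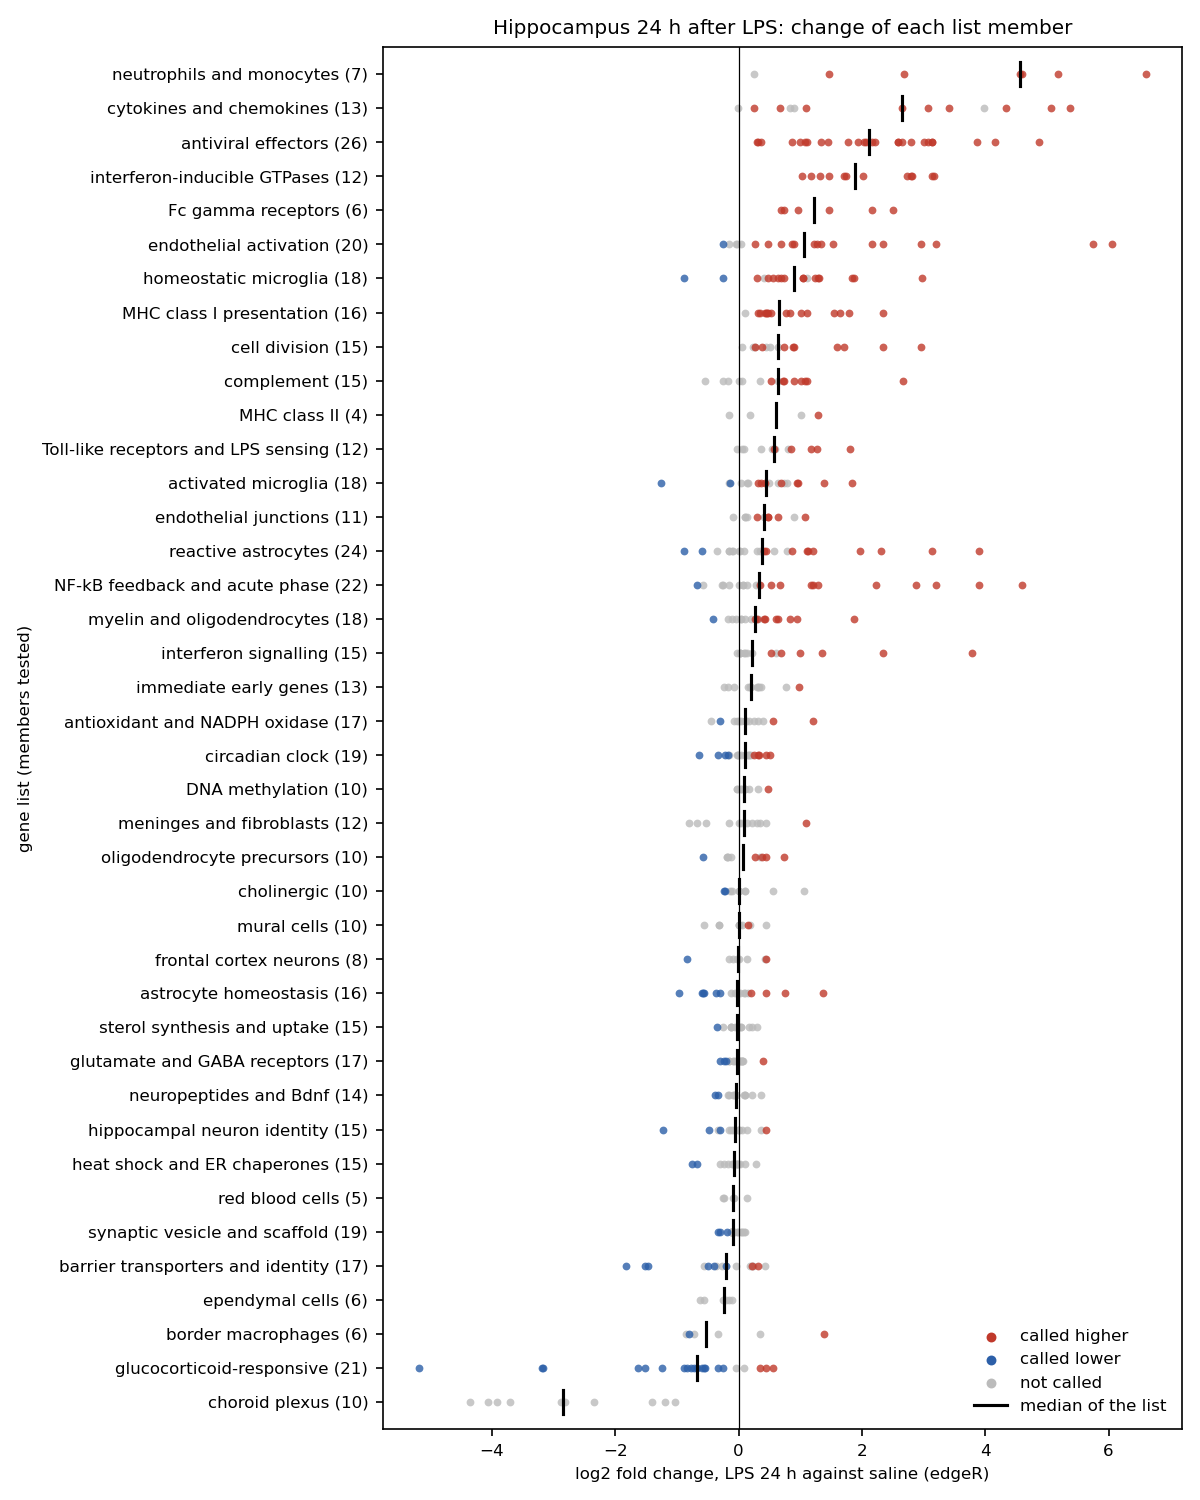
Change of each tested member of 40 gene lists in the hippocampus, as log2 fold change of LPS 24 h (n = 4) against saline (n = 3). Each point is a gene, coloured by whether it passed the edgeR threshold, and the black bar is the list's median. All 26 antiviral effectors are red, 16 of 21 glucocorticoid-responsive genes are blue, and the choroid plexus genes, all grey, lie below zero. Several cytokine and neutrophil genes had almost no counts after saline.

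The 10 largest rises among genes with a log2 mean CPM of at least 1 and no overlap between the groups were those of Scgb3a1, Sele, Selp, Ccl12, S100a9, Cxcl10, Lcn2, Ifi44, Irf7 and Ecscr. All but Irf7 (0.806 CPM) averaged 0.0229 to 0.342 CPM after saline, under the level of about 0.416 CPM in the filter on low counts. Those genes passed the filter through LPS libraries and were low after saline by selection, so the ranking is a description. Scgb3a1, a secreted secretoglobin (ENSMUSG00000064057.12, chromosome 11, 49663610 to 49665118), was at 0, 0.0341 and 0.0768 CPM after saline and 3.59, 2.98, 4.04 and 2.87 CPM after LPS. Its pooled ratio was 95 (95% exact interval 32.2 to 463), or 62.5 without saline A222 and 197 without saline A226, and these intervals cover counting error only. The 3 saline libraries held 3 counts in all, and the rule itself required every LPS library to be above every saline library.

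The 10 largest falls by the same rule were those of Plin4, Rtp1, Sult1a1, Hif3a, Pla2g3, Etnppl, Fam83d, Xdh, Mfsd2a and Ddc. Among these, Ddc, which encodes the decarboxylase of monoamine synthesis, was at 13.9, 13.7 and 10.1 CPM after saline and 3.39, 3.39, 4.21 and 3.55 CPM after LPS (log2 fold change -1.78 ± 0.13 SE, adjusted p = 1.85e-09). Xdh, the purine-degrading xanthine dehydrogenase, fell from 9.23 ± 3.91 to 2.62 ± 0.444 CPM (-1.82 ± 0.23, adjusted p = 2.47e-05). Etnppl, an astrocytic phospholipid enzyme, was at 8.77, 6.69 and 8.01 CPM in 3 LPS libraries and at 30.9 CPM in A276, against 42.2 to 56.2 CPM after saline. Its log2 fold change was -1.89 ± 0.4 (adjusted p = 0.00807), and -2.7 without A276. In the fit of the 7 compared libraries alone its adjusted p was 0.119.

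Antiviral genes downstream of interferon rose, and for 25 of 26 every LPS library was above every saline library (10.9% of all genes tested). The 26 include genes that passed the filter on low counts through LPS libraries alone, so this count is a description. Most genes of the interferon receptors and their kinases did not pass the test. Of 15 interferon signalling genes 6 rose, among them Irf7, Usp18, Irf9, Irf8 and Irf1, with a list median of 0.22. Of the 14 that would have passed the filter on low counts from the saline libraries alone 5 rose, and with the mouse as a block the adjusted p of Irf1 was 0.117. Irf7, the transcription factor that amplifies interferon production (ENSMUSG00000025498.15, chromosome 7, 141262706 to 141266481), was at 0.866, 0.784 and 0.768 CPM after saline and 10.3, 8.93, 10.2 and 15.1 CPM after LPS. Its log2 fold change was 3.78 ± 0.26 (adjusted p = 3.62e-08). Irf9, a transcription factor of the interferon response, rose from 4.95 ± 0.815 to 12.6 ± 1.19 CPM (1.35 ± 0.12, adjusted p = 4.55e-08). The receptor subunit Ifnar1 was at 33.9 ± 0.623 and 36.3 ± 1.07 CPM (0.1 ± 0.05, adjusted p = 0.244).

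All 26 antiviral effector genes rose, with log2 fold changes from 0.3 to 4.87 and a median of 2.11. Of these, 18 would have passed the filter on low counts from the saline libraries alone, and those had a median of 1.86. Ifit3, whose promoter is printed above (ENSMUSG00000074896.3, chromosome 19, 34583531 to 34588731), was at 3.5, 2.62 and 4.72 CPM after saline and 26.6, 25.1, 30.4 and 44.9 CPM after LPS (3.14 ± 0.28, adjusted p = 8.23e-06). Ifitm3, a membrane protein that restricts viral entry, rose from 4.34 ± 0.633 to 26 ± 3.14 CPM (2.58 ± 0.14, adjusted p = 1.73e-09). Bst2, the tetherin that holds budding virus at the cell surface, rose from 2.03 ± 0.326 to 8.38 ± 1.83 CPM (2.04 ± 0.19, adjusted p = 2.16e-07). A278 was the highest of the 4 LPS libraries for each of Irf7, Ifit3, Ifitm3 and Bst2. Zbp1, a sensor of Z-form nucleic acids, had 4 counts in all after saline and was at 1.65, 1.12, 1.36 and 2.05 CPM after LPS, a pooled ratio of 32.4 (12.4 to 121). The smallest rises were those of Samhd1 (0.3), whose adjusted p was 0.0504, 0.0629 and 0.0574 without A274, A278 and A224, and Ifi27 (0.31), whose adjusted p was 0.325 in the fit of all 30 libraries and 0.283 with the mouse as a block.

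The GTPases that act on vacuoles of intracellular pathogens rose in 12 of 12 tested cases (13 listed), with a median of 1.88. Of the 12, 9 would have passed the filter from saline alone. Gbp3 (ENSMUSG00000028268.14, chromosome 3, 142560026 to 142573209) was at 1.11, 0.545 and 1.69 CPM after saline and 9.16, 7.81, 8.04 and 13.5 CPM after LPS (3.13 ± 0.27, adjusted p = 6.49e-07). Gbp2 was at 1.04, 0.511 and 1.34 CPM after saline and 5.77, 4.04, 7.47 and 8.01 CPM after LPS (2.73 ± 0.31, adjusted p = 2.28e-05). The groups did not overlap for either gene. Tgtp2 was at 0.381, 0.204 and 0.691 CPM after saline and 3.44, 2.6, 1.44 and 4.41 CPM after LPS (2.81 ± 0.52, adjusted p = 0.00256), but its adjusted p was 0.0598 in the fit of all 30 libraries and 0.297 with the mouse as a block. The guanylate-binding protein genes are close copies, so reads may have been divided among them.

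Most genes of antigen presentation through MHC class I rose. Of 16 class I genes 15 rose, with a median of 0.65, all but the proteasome subunit Psmb10. Of the 15 that would have passed the filter from saline alone 14 rose, with a median of 0.52. The class I transactivator Nlrc5 was at 0.277, 0.136 and 0.307 CPM after saline and 1.5, 1.12, 0.825 and 1.5 CPM after LPS (2.34 ± 0.34, adjusted p = 2.57e-05). The immunoproteasome subunit Psmb8 rose from 1.01 ± 0.261 to 3.16 ± 0.624 CPM (1.65 ± 0.22, adjusted p = 9.23e-06), and the peptide transporter Tap1 from 2.38 ± 0.178 to 5.14 ± 1.04 CPM (1.11 ± 0.17, adjusted p = 7.31e-05). The shared light chain B2m was at 46.2, 45.7 and 48.6 CPM after saline and 66.4, 66.3, 62.5 and 74 CPM after LPS (0.52 ± 0.06, adjusted p = 4.91e-07). Of 7 class II genes 4 could be tested and 1, H2-DMb1, rose (1.29, or 1.9 without saline A226). The number was 2 without LPS A275 or saline A226. The invariant chain Cd74 was at 0.277, 0.307 and 0.73 CPM after saline and 1.02, 0.511, 1.03 and 0.91 CPM after LPS (1.01 ± 0.36, adjusted p = 0.0701, or 0.0326 without A275 and 0.0116 without A226), so its groups overlapped.

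Secreted inflammatory mediators were detected at low levels. Of 20 cytokine and chemokine genes 13 were tested and 9 rose, but only 4 would have passed the filter from saline alone, of which 3 (Csf1, Cxcl16 and Tgfb1) rose. The adjusted p of Csf1 was 0.0576 with the mouse as a block. The filter also used the 6 h and 12 h LPS libraries. A gene that passed it through LPS libraries alone was low after saline by selection, so the count of 9 is a description. Il1a, the alarmin interleukin-1 alpha, was at 0.104, 0.204 and 0.23 CPM after saline and 1.21, 1.21, 2.23 and 1.46 CPM after LPS (3.07 ± 0.4, adjusted p = 7.57e-06). Il1b, the secreted interleukin-1 beta, was at 0.104, 0.0341 and 0.0768 CPM after saline and 0.194, 0.697, 0.495 and 0.501 CPM after LPS (2.65 ± 0.79, adjusted p = 0.0337), with 6 and 42 counts in all. Its adjusted p was 0.0719 to 0.136 when A275, A276, A278, A222, A224 or A226 was left out, and 0.316 with the mouse as a block. Ccl2, the monocyte attractant, had 3 counts after saline and was at 0.63, 0.232, 1.9 and 0.455 CPM after LPS, a pooled ratio of 23.5 (7.74 to 117), or 46.4 without A222 and 12.3 without A276. Its adjusted p was 0.0139, or 0.0616 without A224 and 0.0524 without A226. Tnf had 3 counts after saline and 6 after LPS, a ratio of 1.91 (0.407 to 11.8; adjusted p = 0.615). Cxcl10, the interferon-induced T cell attractant, was at 0.0347, 0.0341 and 0.23 CPM after saline and 2.42, 1.81, 3.01 and 6.23 CPM after LPS (5.07 ± 0.65, adjusted p = 7.67e-05, or 6.41 without saline A226).

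The 24 h libraries were also compared with 4 hippocampal libraries collected 6 h after LPS, which differ in time and not in treatment and share the LPS 24 h libraries with the first comparison. Of 17289 genes 790 were higher (4.57%) and 850 lower (4.92%) at 24 h than at 6 h after LPS. Against the saline libraries, which all 3 time points share, 2.96% of genes were higher and 2.15% lower at 6 h, and 6.07% and 6.28% at 12 h. Il1b was at 3.93 ± 2.02 CPM at 6 h and 0.472 ± 0.208 CPM at 24 h (log2 difference -3.03 ± 0.39, adjusted p = 7.83e-05). Tnf was at 0.606 ± 0.239 and 0.0692 ± 0.0299 CPM (-3.03 ± 0.5, adjusted p = 0.000328). Cxcl10 was higher at 24 h, at 3.37 ± 1.97 against 1.13 ± 0.294 CPM (1.55 ± 0.39, adjusted p = 0.0232). Msr1, a macrophage scavenger receptor, was among the 5 largest falls from 6 h, at 3.87 ± 1.89 CPM then and 0.894 ± 0.218 CPM at 24 h (-2.1 ± 0.33, adjusted p = 0.000589). Of the 26 antiviral genes 12 were higher and 0 lower at 24 h than at 6 h, and Ifit3 went from 12.6 ± 0.68 to 31.7 ± 9.06 CPM (1.34 ± 0.22, adjusted p = 0.00223).

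Among 22 genes of NF-κB feedback and the acute phase, 11 rose and 1 fell against saline, with a median of 0.33, and 1 was higher and 10 were lower at 24 h than at 6 h after LPS. Of the 22, 18 would have passed the filter from saline alone, and 7 of these rose. The number that fell was 2 without LPS A276 or saline A226. Lcn2, an acute phase protein that withholds iron from bacteria (ENSMUSG00000026822.14, chromosome 2, 32384633 to 32388252), was at 0.277, 0.136 and 0.269 CPM after saline and 2.81, 3.49, 3.18 and 4.23 CPM after LPS (3.89 ± 0.31, adjusted p = 1.38e-08). It had been at 11.6 ± 1.61 CPM at 6 h and 7.35 ± 1.75 CPM at 12 h after LPS, and the fall from 6 to 24 h was -1.76 ± 0.16 (adjusted p = 2.68e-07). Bcl3, a nuclear IκB protein, was at 0.192 ± 0.0778 CPM after saline, 3.97 ± 0.375 at 6 h and 1.44 ± 0.164 CPM at 24 h (24 h against saline 2.88 ± 0.3, adjusted p = 2.85e-07). Socs3, an inhibitor of cytokine signalling, rose from 1.28 ± 0.293 to 5.94 ± 2.55 CPM (2.23 ± 0.36, adjusted p = 0.000856), with A276 highest at 9.57 CPM. Nfkbia, which encodes the inhibitor IκBα, was the gene that fell, from 33.8, 34.1 and 24.5 to 17.3, 19.3, 19.3 and 20.8 CPM (-0.68 ± 0.1, adjusted p = 0.000128).

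Of 12 genes for Toll-like receptors and LPS sensing 5 rose, with a median of 0.58, and of the 10 that would have passed the filter from saline alone 3 rose. The LPS receptor Tlr4 was at 1.25, 0.92 and 1.08 CPM after saline and 1.65, 2.23, 1.9 and 2.05 CPM after LPS (0.85 ± 0.2, adjusted p = 0.0043). Its co-receptor Cd14 rose from 1.52 ± 0.243 to 3.64 ± 0.113 CPM (1.27 ± 0.2, adjusted p = 9.51e-05), below the 6.35 ± 1.24 CPM at 6 h. The endosomal DNA sensor Tlr9 was at 0.493 ± 0.139 CPM after saline, 0.502 ± 0.0469 at 6 h and 1.11 ± 0.155 CPM at 24 h (against saline 1.18 ± 0.27, adjusted p = 0.00368). It was also higher at 24 h than at 6 h (1.13 ± 0.26, adjusted p = 0.00588), so Cd14 and Tlr9 took different courses after LPS.

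**Figure D2:**
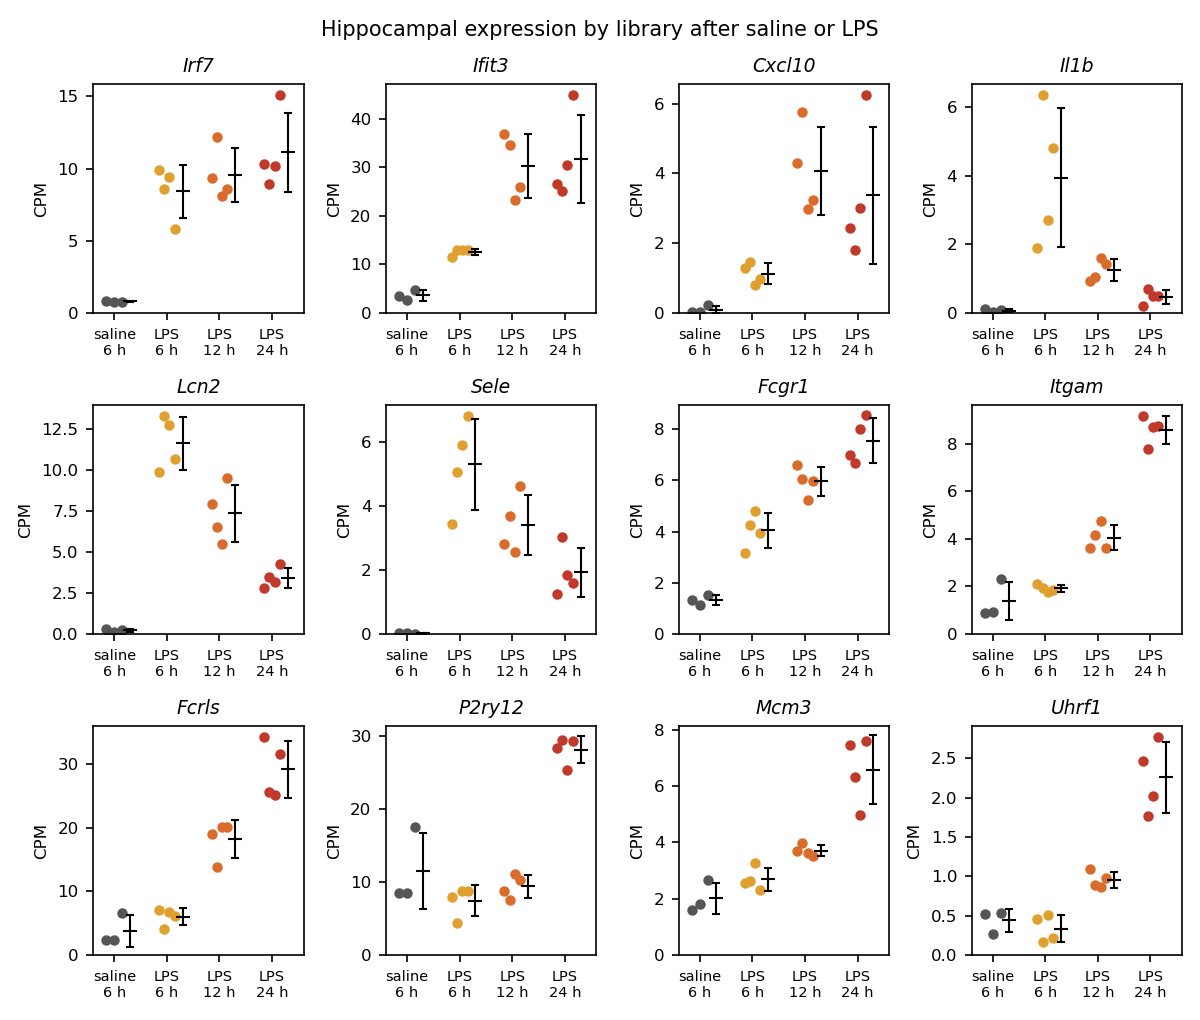
Expression in CPM of 12 genes by hippocampal library after saline (6 h, n = 3) and 6, 12 and 24 h after LPS (n = 4 each). Points are libraries, and bars show mean ± SD. Il1b, Lcn2 and Sele are highest at 6 h, whereas Itgam, Fcrls, P2ry12, Mcm3 and Uhrf1 have their highest mean at 24 h.

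Most homeostatic microglia genes were higher at 24 h than after saline, and most were higher than at 6 h after LPS. Of 18 homeostatic microglia genes 14 rose and 2 fell (Mertk and Cst3) against saline, with a median of 0.89. The number that fell was 1 without A274, A275 or A226, when the adjusted p of Cst3 was 0.0641 to 0.14. It was also 1 with the mouse as a block (adjusted p of Cst3 0.151) and under library totals alone. At 6 h after LPS, against the same saline libraries, 0 rose and 3 fell, and at 12 h 6 rose and 2 fell. In the comparison of 24 h with 6 h, 16 of 18 were higher and 0 lower. Fcrls, an Fc receptor-like protein specific to microglia in the mouse brain (ENSMUSG00000015852.13, chromosome 3, 87250758 to 87263738), was at 2.43, 2.32 and 6.64 CPM after saline and 34.3, 25.6, 25.2 and 31.6 CPM after LPS. Its log2 fold change was 2.97 ± 0.31 (adjusted p = 4.65e-05), and 3.62 without A226, the highest saline library. It had been at 6.03 ± 1.34 CPM at 6 h and 18.3 ± 2.99 CPM at 12 h.

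Olfml3, a secreted microglial protein, was at 10.2, 10.4 and 14.5 CPM after saline and 46.9, 39.9, 33.2 and 45.8 CPM after LPS (1.83 ± 0.14, adjusted p = 3.95e-07). It was at 11.7 ± 1.68 CPM at 6 h, so the rise came after that time (24 h against 6 h 1.82 ± 0.13, adjusted p = 4.63e-07). The purinergic receptor P2ry12, which guides microglial processes, was at 8.52, 8.49 and 17.5 CPM after saline and 28.3, 29.5, 25.4 and 29.4 CPM after LPS (1.3 ± 0.26, adjusted p = 0.00523). In the fit of all 30 libraries its adjusted p was 0.0633. At 6 h it was at 7.46 ± 2.09 CPM, and the log2 difference of 24 h from 6 h was 1.93 ± 0.25 (adjusted p = 0.000555). Tmem119, a microglial membrane marker, rose from 14.2 ± 2.75 to 29.3 ± 4.79 CPM (1.04 ± 0.18, adjusted p = 0.00131), and the fractalkine receptor Cx3cr1 from 26.1 ± 6.7 to 53.5 ± 1.64 CPM (1.04 ± 0.11, adjusted p = 5.95e-06). Gpr34, a lysophosphatidylserine receptor, was at 2.18, 2.42 and 7.3 CPM after saline and 10, 9.11, 6.93 and 7.78 CPM after LPS (1.11 ± 0.36, adjusted p = 0.0672). The groups overlapped through A226 alone, and without it the log2 fold change was 1.88 (adjusted p = 1.01e-05). Aif1, the cytoskeletal protein IBA1 used to stain microglia, rose from 1.54 ± 0.761 to 5.58 ± 0.951 CPM (1.87 ± 0.24, adjusted p = 1.68e-05). Ly86, a partner of the receptor RP105, rose from 4.11 ± 1.26 to 14.8 ± 3.81 CPM (1.85 ± 0.22, adjusted p = 2.04e-05). Mertk, a phagocytic receptor that astrocytes also express, fell from 55.3, 47.2 and 40.6 to 28.5, 26.6, 25.2 and 23.4 CPM (-0.88 ± 0.08, adjusted p = 1.56e-07).

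Receptors for immunoglobulin and complement rose with these genes. All 6 Fc gamma receptor genes rose, with a median of 1.22, or 0.96 over the 5 that would have passed the filter from saline alone. Fcgr1, the high-affinity IgG receptor (ENSMUSG00000015947.10, chromosome 3, 96282909 to 96293969), was at 1.32, 1.12 and 1.54 CPM after saline and 6.98, 6.69, 8 and 8.56 CPM after LPS (2.51 ± 0.16, adjusted p = 3.54e-10). Fcgr2b, the inhibitory receptor of the family, rose from 1.44 ± 0.383 to 6.46 ± 0.866 CPM (2.17 ± 0.18, adjusted p = 1.17e-08). Of 15 tested complement genes 8 rose, with a median of 0.63, and all 8 were among the 13 that would have passed the filter from saline alone. Itgam, a subunit of complement receptor 3 (ENSMUSG00000030786.18, chromosome 7, 128062640 to 128118491), was at 0.901, 0.92 and 2.3 CPM after saline and 9.16, 7.76, 8.7 and 8.74 CPM after LPS (2.66 ± 0.21, adjusted p = 8.87e-09). Its level rose by 2.15 ± 0.19 between 6 h and 24 h after LPS (adjusted p = 8.85e-08). C1qc, a chain of the initiating C1q complex, was at 28.6, 24.4 and 31.5 CPM after saline and 57.5, 54.1, 55.7 and 59.9 CPM after LPS (1.01 ± 0.07, adjusted p = 1.73e-09). C4b, a classical pathway component that astrocytes also make, rose from 34.1 ± 6.46 to 73.2 ± 6.43 CPM (1.11 ± 0.13, adjusted p = 5.59e-05).

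Genes of activated or lysosomal microglia moved both ways. Of 18 tested genes 8 rose and 2 fell (Spp1 and Apoe), with a median of 0.45, and the number that fell was 1 when A274, A275, A278, A222 or A226 was left out, with adjusted p values for Apoe of 0.0682 to 0.154. With the mouse as a block 1 fell, and the adjusted p of Apoe was 0.302. Cd52, a glycoprotein of immune cells, rose from 1.15 ± 0.334 to 4.11 ± 0.796 CPM (1.84 ± 0.2, adjusted p = 6.68e-07). Lgals3bp, a galectin-3 ligand, rose from 11.5 ± 2.49 to 30 ± 4.23 CPM (1.39 ± 0.14, adjusted p = 4.24e-06). Spp1, which encodes osteopontin, fell from 13.8, 9.27 and 9.3 to 4.31, 3.53, 4.87 and 5.23 CPM (-1.26 ± 0.25, adjusted p = 0.00339). Clec7a (0.74) and Axl (0.15), markers of disease-associated microglia, did not pass the test. Axl did pass by edgeR under library totals alone (adjusted p = 0.0394) and by limma-voom (adjusted p = 0.0489). Tspo, a mitochondrial outer membrane protein used as a target in imaging of inflammation, rose from 4.03 ± 0.136 to 7.82 ± 0.867 CPM (0.96 ± 0.14, adjusted p = 2.65e-05).

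Genes of DNA replication and mitosis were among those higher at 24 h. Of 15 tested cell division genes 9 rose, with a median of 0.63, and of the 11 that would have passed the filter from saline alone 7 rose. At 6 h after LPS 0 of 15 and at 12 h 3 of 15 were above the same saline libraries, and 9 were higher at 24 h than at 6 h. Mcm3, a subunit of the replicative helicase (ENSMUSG00000041859.10, chromosome 1, 20802968 to 20820312), was at 1.59, 1.81 and 2.65 CPM after saline and 7.46, 6.32, 4.99 and 7.6 CPM after LPS (1.71 ± 0.18, adjusted p = 2.9e-07). Uhrf1, which maintains DNA methylation at replication forks, was at 0.52, 0.273 and 0.538 CPM after saline and 2.47, 1.77, 2.02 and 2.78 CPM after LPS (2.34 ± 0.28, adjusted p = 2.67e-06). Both genes were also higher at 24 h than at 6 h, by 1.29 ± 0.16 for Mcm3 (adjusted p = 9.96e-06) and 2.72 ± 0.28 for Uhrf1 (adjusted p = 7.76e-07). Mki67, the proliferation antigen, was at 0.693, 0.784 and 0.691 CPM after saline and 3.44, 2, 1.07 and 2.37 CPM after LPS (1.6 ± 0.32, adjusted p = 0.00132). Top2a, the mitotic topoisomerase, ranged from 0.66 CPM (A276) to 3.63 CPM (A274) after LPS, against 0.204 to 0.277 CPM after saline (2.96 ± 0.51, adjusted p = 0.00046). The cell type that expressed these genes was not tested.

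**Figure D3:**
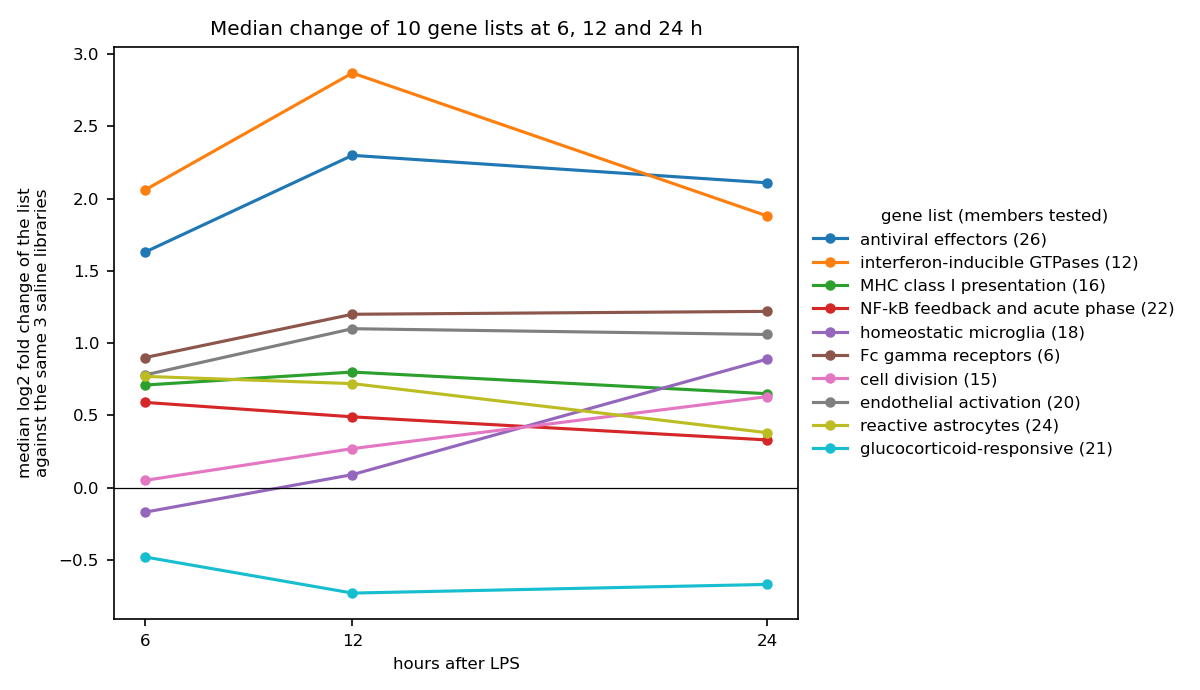
Median log2 fold change of 10 gene lists in the hippocampus at 6, 12 and 24 h after LPS, each against the same 3 saline libraries. Points are medians over the tested members of a list, joined by lines. The median of homeostatic microglia genes is -0.17, 0.09 and 0.89, and that of cell division genes 0.05, 0.27 and 0.63, whereas NF-κB feedback genes go from 0.59 to 0.33.

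Endothelial genes changed in 3 ways. Of 20 endothelial activation genes 15 rose and 1, Ptgs2, fell, with a median of 1.06. The adjusted p of Ptgs2 was 0.0684 without A276 and 0.116 without A222, and 0 fell without A222. The adjusted p of Ptgs2 was 0.155 with the mouse as a block. Of the 20, 16 would have passed the filter from saline alone, and 11 of these rose. Sele, an endothelial selectin that slows rolling leukocytes (ENSMUSG00000026582.6, chromosome 1, 164048234 to 164057677), had 2 counts in all after saline and was at 1.26, 3.02, 1.86 and 1.59 CPM after LPS, a pooled ratio of 81.5 (22.2 to 678). It was lower at 24 h than at 6 h after LPS, when it was at 5.3 ± 1.43 CPM (-1.44 ± 0.26, adjusted p = 0.00131). Vwf, which encodes the platelet-binding von Willebrand factor, was at 19.6, 17.7 and 14.5 CPM after saline and 48.4, 54.4, 46 and 51.1 CPM after LPS (1.53 ± 0.12, adjusted p = 6.26e-08). Unlike Sele, it was at 16.7 ± 0.795 CPM at 6 h (24 h against 6 h 1.59 ± 0.11, adjusted p = 4.63e-08). The adhesion molecule Vcam1 rose from 13.3 ± 1.19 to 24.2 ± 2.65 CPM (0.86 ± 0.14, adjusted p = 0.000351). Ctla2a, a protease inhibitor homologue, was at 10.3, 9.16 and 11.2 CPM in 3 LPS libraries and 42.1 CPM in A276, against 1.54 to 2.81 CPM after saline. Its log2 fold change was 2.96 ± 0.57 (adjusted p = 0.00469), or 2.13 without A276, and in the fit of the 7 compared libraries its adjusted p was 0.0972.

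Transporters and identity genes of the blood-brain barrier fell more often than they rose. Of 17 genes 6 fell and 2 rose, with a median of -0.21, and 1 rose when A274, A275, A222 or A226 was left out. In the fit of all 30 libraries and with the mouse as a block 0 rose. Mfsd2a, the endothelial carrier of omega-3 lysolipids (ENSMUSG00000028655.11, chromosome 4, 122946850 to 122961188), was at 44.9, 38.1 and 28.9 CPM after saline and 10.6, 11.8, 11.2 and 8.6 CPM after LPS (-1.82 ± 0.13, adjusted p = 6.27e-08). Atp10a, a lipid flippase, fell from 13, 10.7 and 9.06 to 5.33, 3.95, 2.31 and 4.23 CPM (-1.47 ± 0.18, adjusted p = 1.18e-05). Slc19a3, a thiamine transporter, fell from 2.88 ± 0.883 to 1.01 ± 0.525 CPM (-1.52 ± 0.28, adjusted p = 0.000592). The glucose transporter Slc2a1 was at 92.9, 80.8 and 71.4 CPM after saline and 72.1, 68.1, 109 and 68.3 CPM after LPS (-0.04 ± 0.16, adjusted p = 0.919), so its groups overlapped. Of 11 junction genes 5 rose and 0 fell, with a median of 0.41. F11r, which encodes junctional adhesion molecule A, was at 5.58, 4.4 and 5.07 CPM after saline and 10.8, 10.3, 10.3 and 10.9 CPM after LPS (1.07 ± 0.11, adjusted p = 5.16e-07). The tight junction gene Cldn5 was at 33.6 ± 3.75 and 37 ± 5.04 CPM (0.14 ± 0.1, adjusted p = 0.431). Among 10 mural cell genes 1, Rgs5, rose (0.15 ± 0.05, adjusted p = 0.0454), and it did not pass when A274, A275, A276, A222 or A226 was left out, with adjusted p values of 0.0519 to 0.162, or with the mouse as a block (adjusted p = 0.245). Of the mural genes 2 fell without A226, and over all genes tested 6.76% were higher and 6.6% lower.

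Astrocyte genes were mixed. Of 24 genes of reactive astrocytes 10 rose and 2 fell, with a median of 0.38, and 1 was higher and 9 were lower at 24 h than at 6 h. Of the 20 that would have passed the filter from saline alone 7 rose, with a median of 0.19. In the fit of the 7 compared libraries alone 5 of the 24 rose. Gfap, the intermediate filament that marks astrocyte reactivity, was at 212, 190 and 289 CPM after saline and 431, 469, 608 and 471 CPM after LPS (1.1 ± 0.15, adjusted p = 0.000298). Osmr, the oncostatin M receptor, rose from 3.7 ± 0.342 to 8.5 ± 2.34 CPM (1.21 ± 0.16, adjusted p = 2.32e-05), below its 13.5 ± 1.22 CPM at 6 h. Serpina3n, an acute phase protease inhibitor often counted among reactive genes, was instead lower, at 96.2, 90.8 and 76.9 CPM after saline and 61.4, 56.1, 60.6 and 54 CPM after LPS (-0.6 ± 0.11, adjusted p = 0.00236). Fbln5, an elastic fibre protein, fell from 9.94, 10.4 and 6.95 to 4.6, 3.86, 6.44 and 4.73 CPM (-0.89 ± 0.21, adjusted p = 0.00862).

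Of 16 astrocyte homeostasis genes 4 rose and 6 fell, with a median of -0.02. The water channel Aqp4 was at 62.2, 61.5 and 74.4 CPM after saline and 111, 108, 112 and 113 CPM after LPS (0.75 ± 0.06, adjusted p = 5.12e-09). The cystine-glutamate exchanger Slc7a11 rose from 18.8, 19 and 20.1 to 51.1, 54.6, 40.1 and 53.4 CPM (1.37 ± 0.17, adjusted p = 0.000156). Glutamine synthetase, Glul, fell from 1790, 1670 and 1540 to 1180, 1070, 1140 and 1070 CPM (-0.58 ± 0.05, adjusted p = 5.12e-09). The glycolytic enzyme Aldoc was at 1150, 1120 and 1100 CPM after saline and 705, 730, 817 and 719 CPM after LPS (-0.6 ± 0.05, adjusted p = 3.27e-09). Aldoc was at 1120 ± 29.1 CPM at 6 h after LPS, so its fall came later (24 h against 6 h -0.59 ± 0.04, adjusted p = 6.21e-09). Connexin 30, Gjb6, fell from 78.3 ± 9.3 to 40 ± 5.17 CPM (-0.97 ± 0.09, adjusted p = 1.93e-07). The glutamate transporter genes Slc1a2 (-0.13) and Slc1a3 (0.02) did not pass the test.

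Oligodendrocyte genes tended upwards. Of 18 myelin and oligodendrocyte genes 9 rose and 1, Mobp, fell (0 fell without saline A222 and 2 without saline A226), with a median of 0.27. Opalin, a myelin membrane protein (ENSMUSG00000050121.8, chromosome 19, 41061710 to 41077113), was at 3.57, 3.27 and 7.03 CPM after saline and 16.6, 13.1, 20 and 16.9 CPM after LPS (1.87 ± 0.25, adjusted p = 0.000164). Ugt8a, which makes galactocerebroside, rose from 21.9 ± 1.13 to 42.1 ± 8.71 CPM (0.94 ± 0.13, adjusted p = 0.000138). Myelin basic protein, Mbp, changed by 0.11 and did not pass. Of 10 genes of oligodendrocyte precursors and newly formed oligodendrocytes 4 rose and 1, Neu4, fell. The number that rose was 2 without saline A222 or A224, and the number that fell was 0 without A222 and 2 without A226. Enpp6, a marker of newly formed oligodendrocytes, rose from 1.77, 1.94 and 2.73 to 2.91, 3.72, 3.92 and 3.64 CPM (0.73 ± 0.16, adjusted p = 0.00311).

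Several of the largest falls were among glucocorticoid-responsive genes, a list of genes that the receptors induce and of genes of hormone sensing. Of 21 genes 16 fell and 3 rose, with a median of -0.67. Against the same saline libraries 12 had fallen at 6 h and 17 at 12 h after LPS. Plin4, a lipid droplet coat protein (ENSMUSG00000002831.13, chromosome 17, 56100591 to 56109803), was at 63.7, 38.3 and 20.1 CPM after saline and 0.872, 0.976, 1.77 and 0.774 CPM after LPS (-5.18 ± 0.46, adjusted p = 1.28e-05). Sult1a1, a phenol sulfotransferase (ENSMUSG00000030711.15, chromosome 7, 126672865 to 126676432), fell from 31.7, 25.8 and 17.9 to 2.86, 2.19, 3.59 and 2.32 CPM (-3.19 ± 0.18, adjusted p = 2.21e-09). Hif3a, a hypoxia-inducible factor subunit, fell from 15.5, 11.3 and 8.53 to 1.45, 0.558, 2.02 and 1.14 CPM (-3.17 ± 0.3, adjusted p = 2.51e-06). For all 3 genes A222 was the highest and A226 the lowest saline library. The absence of overlap between the groups was part of the rule that picked them.

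The time courses of these genes differed. Hif3a was already at 1.41 ± 0.318 CPM at 6 h after LPS (24 h against 6 h -0.14 ± 0.36, adjusted p = 0.851), whereas Sult1a1 was at 17.7 ± 0.631 CPM at 6 h and fell further by 24 h (-2.68 ± 0.17, adjusted p = 4.63e-08). Fkbp5, the co-chaperone that dampens glucocorticoid receptor activity, was at 161, 136 and 115 CPM after saline and 77.9, 72.6, 76.7 and 69.9 CPM after LPS (-0.89 ± 0.1, adjusted p = 1.2e-05). Sgk1, a glucocorticoid-induced kinase, fell from 146, 126 and 86.2 to 49.8, 44.9, 60 and 47.1 CPM (-1.24 ± 0.15, adjusted p = 0.000115). The 3 genes that rose encode hormone receptors and an enzyme that regenerates active hormone. The glucocorticoid receptor Nr3c1 was at 63.5, 69.2 and 68.4 CPM after saline and 96.4, 101, 93.8 and 100 CPM after LPS (0.55 ± 0.05, adjusted p = 6.46e-08). The mineralocorticoid receptor Nr3c2 rose from 166 ± 12.9 to 212 ± 2.67 CPM (0.35 ± 0.07, adjusted p = 0.00161), and Hsd11b1 from 17.9 ± 1.1 to 24.2 ± 1.49 CPM (0.44 ± 0.07, adjusted p = 0.000138). A loose glucocorticoid response element, ACANNNTGT on either strand, was present in the 300-base windows of 3 of 19 listed genes (15.8%) and of 7.9% of all genes. The 3 genes were Sgk1, Mt1 and Txnip. Other motifs were as frequent, with CACGTG and TTCNNNGAA each present for 3 of the 19, against 8.09% and 9.55% of all genes.

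**Figure D4:**
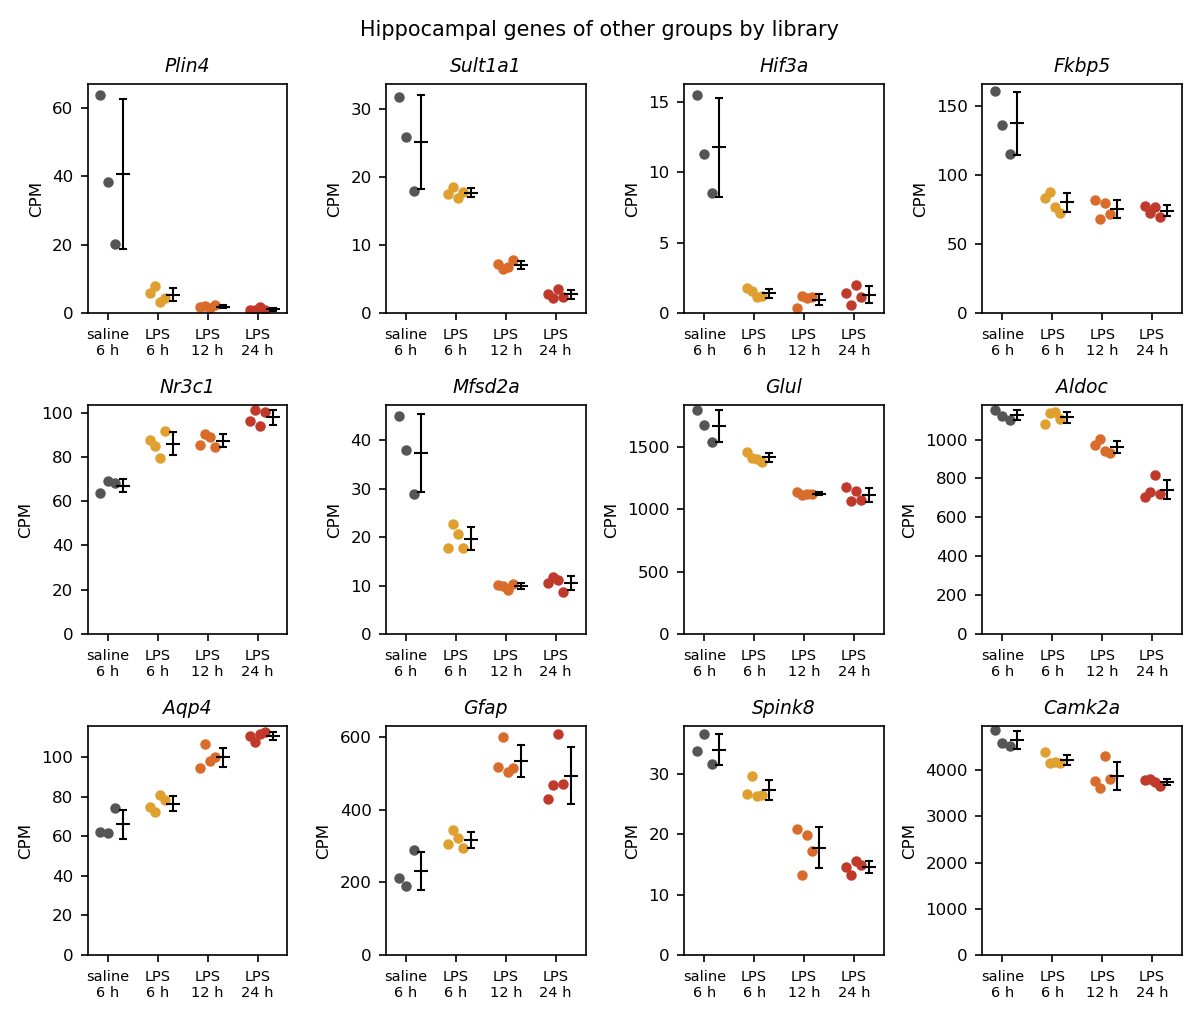
Expression in CPM of 12 genes by hippocampal library after saline (6 h, n = 3) and 6, 12 and 24 h after LPS (n = 4 each), with points for libraries and bars for mean ± SD. Hif3a is low from 6 h on, the means of Sult1a1, Aldoc and Spink8 fall from 6 h to 12 h and to 24 h, and Nr3c1, Aqp4 and Gfap are higher after LPS.

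Since LPS tissue was taken 24 h and saline tissue 6 h after injection, genes of the circadian clock were examined, since the labels used here do not give the time of day. Of 19 clock genes 5 rose and 4 fell, with changes of -0.64 to 0.51 and a median of 0.1. The number that rose was 3 without A276 or A222, and the number that fell was 2 without A278, A222 or A224. With the mouse as a block 2 rose and 2 fell, in the fit of all 30 libraries 3 rose and 2 fell, and under library totals alone 1 fell. The core oscillator genes Per1 (-0.15) and Per2 (0.2) did not pass. Dbp, a clock output factor, rose from 27.9, 25.5 and 33.5 to 37.8, 39.6, 46.2 and 40.9 CPM (0.51 ± 0.08, adjusted p = 6.74e-05). Npas2, a partner of the clock activator, fell from 32.6, 33.3 and 29.3 to 23.6, 20.6, 18.6 and 19 CPM (-0.64 ± 0.08, adjusted p = 2.26e-06). Of 13 immediate early genes of neuronal activity 1, Fos, rose (0.98 ± 0.26, adjusted p = 0.0219, or 0.0509 to 0.0924 without A275, A224 or A226). That number was 0 without A275, A224 or A226, 3 without A276 and 2 without A222. It was 0 with the mouse as a block, when the adjusted p of Fos was 0.13. Over all genes tested 6.76% were higher, so 1 of 13 is near that share.

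Changes in neuronal genes were mostly small. Of 19 synaptic vesicle and scaffold genes 3 fell and 0 rose, with a median of -0.1, and 12 of the 19 were lower in every LPS library than in every saline library. Over all genes tested the latter held for 11.7%. Camk2a, the abundant synaptic kinase, was at 4880, 4590 and 4510 CPM after saline and 3790, 3800, 3750 and 3650 CPM after LPS (-0.31 ± 0.05, adjusted p = 3.71e-05). Dlg4, the scaffold PSD-95, fell from 768 ± 23.8 to 673 ± 17.3 CPM (-0.19 ± 0.04, adjusted p = 0.00144), and Shank2 from 176 ± 14.3 to 140 ± 11.8 CPM (-0.33 ± 0.07, adjusted p = 0.00381). The synaptic vesicle gene Syn1 was at 576 ± 23.6 and 526 ± 10.6 CPM (-0.13 ± 0.04, adjusted p = 0.0524, or 0.0498 without A224). Of 17 glutamate and GABA receptor genes 3 fell and 1 rose, or 2 rose without A276 and 0 without A222 or with the mouse as a block. The kainate receptor Grik4 fell from 66.4, 70.2 and 64.2 to 54.6, 52.9, 54.5 and 54.6 CPM (-0.31 ± 0.05, adjusted p = 8.85e-05).

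Of 15 genes that identify hippocampal neurons 3 fell and 1 rose, and 1 fell without saline A224. Spink8, a protease inhibitor of CA1 pyramidal cells (ENSMUSG00000050074.12, chromosome 9, 109812280 to 109826633), was at 33.7, 36.6 and 31.7 CPM after saline and 14.6, 13.2, 15.6 and 14.9 CPM after LPS (-1.22 ± 0.1, adjusted p = 9.35e-08). It was at 27.3 ± 1.59 CPM at 6 h and 17.8 ± 3.4 CPM at 12 h after LPS. The CA1 marker Wfs1 (-0.06) and the dentate granule cell marker Prox1 (0.01) did not pass, and Zbtb20, a transcription factor of hippocampal neurons, rose from 142, 159 and 158 to 236, 221, 171 and 202 CPM (0.44 ± 0.09, adjusted p = 0.0025). Lamp5, an interneuron and cortical layer marker, fell from 53.4, 49 and 52.8 to 30.3, 29.3, 26.9 and 28.9 CPM (-0.84 ± 0.06, adjusted p = 1.8e-09). Of 14 neuropeptide and growth factor genes 2 fell, or 1 when A275, A278, A222 or A224 was left out. Vgf, a neurosecretory precursor, fell from 266 ± 15.6 to 203 ± 15.2 CPM (-0.39 ± 0.06, adjusted p = 8.23e-05), and Bdnf was at 51.7 ± 1.85 and 45.9 ± 4.1 CPM (-0.17 ± 0.1, adjusted p = 0.32).

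Genes tied to the shared DFP exposure and to other pathways of interest in this model mostly did not pass. Over all genes tested 6.76% were higher and 6.6% lower, and several of the following counts are near those shares. Of 10 tested cholinergic genes 2 fell, Chrm1 and Chrm3, or 1 without A278 or A222, when the adjusted p of Chrm3 was 0.0552 and 0.0642. It was 0.137 with the mouse as a block. Acetylcholinesterase, Ache, the target of DFP, was at 48.8, 46.2 and 50.5 CPM after saline and 51.2, 50.7, 57 and 51.2 CPM after LPS (0.11 ± 0.06, adjusted p = 0.27). The muscarinic receptor Chrm1 fell from 293, 289 and 283 to 251, 260, 231 and 244 CPM (-0.23 ± 0.05, adjusted p = 0.00222). Of 10 DNA methylation genes 1, Tet1, rose (0.48 ± 0.13, adjusted p = 0.0134), or 0 without A224 (adjusted p = 0.057) or A226 (adjusted p = 0.0586) and 2 without A274. Of 17 antioxidant and NADPH oxidase genes 2 rose and 1 fell, and 1 rose without A276 or A224 or with the mouse as a block, and 2 fell without A226. Cyba, a subunit of the phagocyte oxidase, rose from 4.82, 5.01 and 5.49 to 7.75, 8.04, 7.01 and 7.28 CPM (0.56 ± 0.12, adjusted p = 0.00261). Srxn1, sulfiredoxin, fell from 92 ± 1.32 to 75 ± 2.29 CPM (-0.3 ± 0.05, adjusted p = 6.89e-05). Of 15 chaperone genes 2 fell, the near-identical heat shock genes Hspa1a (-0.68 ± 0.13, adjusted p = 0.00156) and Hspa1b (-0.76 ± 0.15, adjusted p = 0.00349), whose reads may be shared. Of 15 sterol genes 1, Fdft1, fell (-0.35 ± 0.06, adjusted p = 0.000499), or 2 without A275 or A224, and 8 were lower at 24 h than at 6 h after LPS.

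Markers of cells outside the tissue proper were measured beside these groups. Among 13 neutrophil and monocyte genes 7 were tested and 6 rose, but 1 alone would have passed the filter from saline, and it did not rise. The 6 were low after saline by selection, so their number is a description. S100a8, a calgranulin abundant in neutrophils, was at 0.0347, 0.102 and 0.0384 CPM after saline and 1.02, 1.26, 2.85 and 1 CPM after LPS (4.59 ± 0.58, adjusted p = 1.55e-05, or 5.22 without A224). The neutrophil gene Retnlg had 0 counts after saline and 46 after LPS, at least 14.6-fold higher against 3 counts over the saline group, with 0.0485, 0.372, 1.32 and 0.228 CPM. Without A276, which was the highest, the bound was 6.13, and without A222, A224 or A226 it was 9.61, 9.53 or 10.1. The monocyte marker Ly6c2 was at 1.32 ± 0.446 and 1.59 ± 0.376 CPM (0.25 ± 0.24, adjusted p = 0.576). Summed over the 13 genes, levels were 1.57 to 2.18 CPM after saline and 6.44 to 12.8 CPM after LPS. The 9 genes of T, B and NK cells were all too low to test and summed to 0.239 to 0.461 CPM after saline and 0.273 to 0.388 CPM after LPS. Whether blood cells in or on the tissue contributed to the immune gene changes was not tested.

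Of 6 tested border macrophage genes, Mrc1, the mannose receptor, rose from 1.25, 0.647 and 1.65 to 3.59, 3.11, 2.27 and 3.28 CPM (1.38 ± 0.25, adjusted p = 0.000424), and the number that rose was 2 without A222 or with the mouse as a block. Cd163, a haemoglobin scavenger receptor, fell (-0.8 ± 0.25, adjusted p = 0.0312), and the number that fell was 0 without A274, A276, A278 or A222 and 3 without A226. With the mouse as a block its adjusted p was 0.0658. The 10 choroid plexus genes had negative changes with a median of -2.85, and none passed the test by edgeR. DESeq2 called 3 of them, and the edgeR fit without a filter called 10. Their summed level was 182 to 1880 CPM after saline and 148 to 198 CPM after LPS, with the highest value in A222, and their part in other changes was not tested. Of 12 meningeal and fibroblast genes 1, the collagen gene Col3a1, rose (1.09 ± 0.24, adjusted p = 0.00264), or 2 with the mouse as a block. Their sums were 109 to 163 CPM after saline and 125 to 141 CPM after LPS. None of 6 ependymal genes (1 lower without A224 or with the mouse as a block) and none of 5 red blood cell genes passed by edgeR.

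The hippocampal response was compared with that of the frontal cortex for the same groups, taking the difference of the 2 responses in a fit of all 30 libraries. Of 17650 genes, 22 (0.125%) differed, 12 with a higher (0.068%) and 10 with a lower (0.0567%) response in the hippocampus, and 1484 had an unadjusted p under 0.05 (8.41%). With the mouse as a fixed block in edgeR, over the mice with both tissues, 5 genes had a higher and 1 a lower response. Without the block, the counts were 4 to 24 higher and 2 to 16 lower when libraries were left out in turn. The genes below are given from the fit of all 30 libraries without the block. H2-T23, a nonclassical MHC class I gene with close copies, rose in the hippocampus from 5.44, 4.57 and 5.99 to 10.8, 8.83, 10.1 and 13.1 CPM, and was at 32.1 and 29.4 CPM in the cortex (difference 1.13, adjusted p = 0.0132). Lrg1, a glycoprotein of activated vessels, rose from 3.4, 3.82 and 2.5 to 6.54, 6.6, 9.16 and 7.92 CPM, and was at 10.3 and 11.9 CPM in the cortex (difference 1.0, adjusted p = 0.0271). Ramp3, a receptor activity modifying protein, fell in the hippocampus from 4.23, 4.43 and 4.69 to 1.84, 1.95, 2.76 and 2.82 CPM, and was at 10.2 and 11 CPM in the cortex (difference -1.03, adjusted p = 0.0132). For Irf7 (0.75, adjusted p = 0.765), Fcrls (0.62, adjusted p = 0.81) and Plin4 (0.02, adjusted p = 0.999) no difference between tissues passed the test.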

How the data were processed

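Gene counts were deposited by the authors as whole numbers per gene and library. Per the submitters' processing notes, reads were trimmed with Trim Galore 0.4.1 and aligned with STAR 2.6.0a to GRCm38, and DESeq2 is named. Which read counter, strand setting and annotation release were used is not given in the sources used here. Symbols came from GENCODE M21 for 98.6% of 48820 genes. From the counts, edgeR 4.0.16 in R 4.3.3 fitted, after filterByExpr at a minimum of 10 counts (15 in total) and TMM normalization, a quasi-likelihood model to the 15 hippocampal libraries, which share 1 estimate of the spread, without covariates. P-values were Benjamini-Hochberg adjusted over all 17289 genes tested. Tissue differences came from a fit of all 30 libraries. The script was tested on simulated data.

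Members and gene lists were chosen with earlier results of these data known. The rule for named genes took the 10 largest called rises and falls with a log2 mean CPM of at least 1 over the 15 libraries and no overlap (predicted genes left out), at most 5 genes per list, ordered by size among called genes and by p among the others, 13 set genes, and the 5 largest differences each way from 6 h and between tissues. From these, genes were chosen for the text. Others, such as Vwf, Vcam1, B2m, Ifitm3, Bst2, Cx3cr1, Mertk, Nfkbia, Serpina3n, Sgk1, Nr3c2, Hsd11b1, Slc2a1 and the members named as not passing, were chosen after their values were seen. Mouse codes pair hippocampus and cortex of 14 of the 16 mice, and the groups compared are different mice. Same-mouse deviations correlated with a median of 0.104 (-0.0617 to 0.293). Alternatives were DESeq2 1.42.0, limma 3.58.1 (voom, and the mouse as a random block, which is meant by the mouse as a block in comparisons with saline), other scalings and filters, other sets of libraries, and leaving out each library. Exact intervals are at 95%.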

Additional observations from a re-analysis of the deposited data

Results flagged for a closer look

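Among the genes described, 12 of 157 had 1 of the 4 LPS 24 h libraries far from the other 3 by Dixon's criterion at the 95% level, and chance gives about 1 in 20 groups. In A276, Ctla2a was at 42.1 CPM against 9.16 to 11.2, Slc2a1 at 109 against 68.1 to 72.1, Etnppl at 30.9 against 6.69 to 8.77, S100a8 at 2.85 against 1 to 1.26, Rtp1 at 1.53 against 0.418 to 0.546, and Ache at 57 against 50.7 to 51.2. In A275, Fos was at 16.9 CPM against 11.6 to 12.1, Neu4 at 5.39 against 6.48 to 6.6, and Grik4 at 52.9 against 54.5 to 54.6. In A274, Selp was at 1.16 CPM against 1.65 to 1.72 and Ifnar1 at 34.7 against 36.8 to 37. In A278, Usp18 was at 4.28 CPM against 2.08 to 2.43.

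The response at 24 h differed between hippocampus and frontal cortex by the interaction term for 22 genes, of which the 5 lowest and 5 highest are given as the log2 response in the hippocampus minus that in the cortex. It was lower in the hippocampus for Ramp3 (-1.03), Rprm (-0.91), Igsf21 (-0.66), Tubb2b (-0.59) and Pfn1 (-0.53). It was higher for H2-T23 (1.13), Lrg1 (1.0), Prss23 (0.96), Prr16 (0.83) and Fbxo32 (0.7).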

How the results depend on the processing

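Of 133 genes called among the 157 described, 110 were called in the same direction under each of 16 alternatives that tested them. A gene removed by an alternative's filter was not counted against it, and 0 called genes reversed. Scaling by library totals alone gave 737 lower genes in place of 1141. Leaving out 1 library gave 661 (without A222) to 1109 lower genes. The tissue difference was the least stable count, with 28 higher and 33 lower genes by DESeq2, and 4 to 24 higher and 2 to 16 lower when a library was left out. With the mouse as a fixed replicate block in edgeR, a paired fit, 5 genes had a higher and 1 a lower response in the hippocampus. A separate limma fit of both tissues, with the mouse as a random replicate block, gave 893 higher and 842 lower genes against saline. In that fit the calls of Tgtp2, Irf1, Ifi27, Csf1, Il1b, Cst3, Apoe, Ptgs2, Rgs5, Fos, Chrm3, Cd163, Msr1 and Igsf21 against saline were lost. All of these but Cd163 and Igsf21 also lost the call in the edgeR fit of all 30 libraries without a block. That fit gave 902 higher and 805 lower genes, so these losses are not particular to the block. Of 80 list counts 39 stayed within 1.5 times under every alternative. Among the others, the fit of the 7 compared libraries alone called 3 neutrophil and monocyte genes higher in place of 6. By limma-voom 7 synaptic genes were lower in place of 3, 8 junction genes higher in place of 5, and 4 NF-κB feedback genes lower in place of 1. Without a filter 6 immediate early genes were higher in place of 1 and 5 chaperone genes lower in place of 2. Some uncalled genes near 0 changed sign, with Slc2a1 at 0.01 under library totals alone and, by limma-voom, Wfs1 at 0.01 and Prox1 at -0.02. When a library was left out, ranges were -0.23 to 0.07 for Slc2a1, -0.01 to 0.05 for Slc1a3, -0.16 to 0.02 for Wfs1 and -0.03 to 0.05 for Prox1. With 3 saline libraries, genes with few counts after saline have wide counting intervals, and the saline group has no 24 h time point.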
